A study of Mus musculus with 2 samples.

Results

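Binding sites of KLF6 that lay outside genes but within 20 kb of a gene start were examined in cultured cells of a mouse liver cancer, hepatocellular carcinoma (HCC). A site was taken when the deposited list placed it upstream or downstream of its assigned gene, with its summit no more than 20 kb from the gene start. Genes described as small RNA features of RFAM or miRBase were left out. At 57 of the sites taken in experiment 1 and 66 in experiment 2 the gene had neither symbol nor description. Such genes could not be checked for being small RNA genes. In experiment 1 the rule took 164 of 742 sites (22.1%), and in experiment 2 it took 174 of 901 (19.3%). Together these were 338 of 1643 listed sites, or 301 distinct sites at 291 genes. The rule used position and gene description only, so fold enrichment and overlap between experiments did not choose the sites.

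There were 2 samples, 1 of chromatin precipitated with an antibody to the V5 tag and 1 of input DNA that was not precipitated. All cells of both samples had been transfected with a plasmid that expresses full-length KLF6 with a V5 tag, and were grown in DMEM with 10% FBS. Each sample held experiment 1, sequenced in 2 runs that the list pools, and experiment 2. The tagged protein came from a plasmid, and precipitates from cells without the tag were not analysed here. The lists gave, for each site, the number of sequence tags, the fold enrichment over background (a ratio), a false discovery rate (FDR, in percent) and the assigned Ensembl gene, all as the authors computed them. The depth of the libraries is unknown. Experiment 1 gave wider sites with more tags (median 580 bp and 25 tags at the proximal sites) than experiment 2 (296 bp and 11.5 tags). No test across libraries was possible, so intervals below are exact Clopper-Pearson 95% intervals of counts and cover counting error only.

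KLF6 is a transcription factor with zinc fingers at its C-terminus, and the Krüppel-like family is known to bind GC boxes and CACCC boxes in gene promoters. In liver it is known as a growth-restraining gene whose function is often reduced in HCC. DNA upstream of a gene start holds the core promoter and, further out, enhancers, while DNA beyond the gene end is less often promoter sequence. Many mouse genes lie head to head or in tandem clusters, and the nearest start is then not always that of the gene a factor acts on.

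At a few genes a site reached the 250 bases before the gene start, and 3 of these windows are shown to set a window with motifs beside one without. The sequences are RefSeq promoter windows of build GRCm38.p6, on the gene's own strand. Capitals mark the GC box GGGCGG, the CACCC box CACCC and GTTCGANTC, the core of the B box by which RNA polymerase III genes such as tRNA genes are read; each was sought on both strands, and none overlaps another in the windows shown. The B box core was added after the Polr3e window had been read.
Polr3e, chr7:120917528-120917777, plus strand: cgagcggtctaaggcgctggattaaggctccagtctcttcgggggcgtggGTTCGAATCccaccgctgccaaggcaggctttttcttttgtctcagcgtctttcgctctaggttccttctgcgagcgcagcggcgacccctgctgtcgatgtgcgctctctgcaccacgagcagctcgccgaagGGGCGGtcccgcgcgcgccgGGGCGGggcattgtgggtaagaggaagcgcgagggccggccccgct
Wbp4, chr14:79481269-79481518, minus strand: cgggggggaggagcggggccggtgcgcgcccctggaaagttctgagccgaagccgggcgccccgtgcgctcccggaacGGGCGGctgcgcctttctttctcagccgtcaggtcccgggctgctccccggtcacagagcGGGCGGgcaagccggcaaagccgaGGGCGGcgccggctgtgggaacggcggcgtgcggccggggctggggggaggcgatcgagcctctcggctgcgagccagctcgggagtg
Olfr406, chr11:74269141-74269390, plus strand: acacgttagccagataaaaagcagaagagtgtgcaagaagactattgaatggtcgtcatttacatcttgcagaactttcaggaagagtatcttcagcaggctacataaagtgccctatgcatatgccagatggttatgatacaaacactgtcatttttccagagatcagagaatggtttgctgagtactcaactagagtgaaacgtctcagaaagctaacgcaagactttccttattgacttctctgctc

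Polr3e encodes a subunit of RNA polymerase III, the enzyme that makes tRNA. Its site in experiment 1 (chr7:128060772-128061190 in mm9) ran from 141 to 559 bp before the listed gene start and was enriched 15.73-fold with 27 tags and an FDR of 17.24%. The window of Polr3e held 2 GC boxes and 1 B box core, which began 200 bases before the RefSeq start. The builds of list and window differ, so the position of the core within the site holds only if both annotations place the start at the same base. Among all 27025 promoter windows of the reference, 38 (0.141%) held the B box core, and Polr3e was the 1 case among 84 windows of genes with an upstream site. Since the core was chosen from the Polr3e window, that case was fixed in advance and the 2 shares cannot be compared.

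The window of Wbp4, a component of the spliceosome, held 3 GC boxes in DNA of 76.4% GC. Its site, enriched 9.99-fold with 16 tags in experiment 1, began 245 bp before the start and so reached only the far end of the window. The window of the olfactory receptor gene Olfr406 held no GC or CACCC box at 40.8% GC, yet its site began 2 bp before the start (5.56-fold, 19 tags). None of these 3 sites was found in experiment 2. A site could thus reach a window with or without the boxes. The marked GC boxes of Polr3e and Wbp4 lay nearer the start than the sites did, if list and window place the start at the same base.

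Over all upstream sites, 37 of the 84 genes with a window had a GC box (44.0%, interval 33.2 to 55.3%), beside 42.7% of all 17492 protein-coding genes and 32.9% of all genes in the table. The CACCC box was in 41 of 84 (48.8%, interval 37.7 to 60.0%), beside 53.2% of protein-coding genes. Genes with an upstream site thus carried these boxes about as often as protein-coding genes in general. Among the 8 genes whose site was less than 1 kb upstream, 5 had a GC box (62.5%, interval 24.5 to 91.5%) and 2 a CACCC box. For genes with a downstream site, a GC box was in 3 of 22 windows (13.6%, interval 2.91 to 34.9%) and a CACCC box in 4 of 22 (18.2%, interval 5.19 to 40.3%). These intervals overlap those of genes with an upstream site, and the difference was not tested. Olfactory receptor genes held 6 downstream sites in experiment 1, 1 of the olfactory sites there having no symbol, and 10 in experiment 2. Only 17 and 15 downstream sites had a gene symbol. Upstream, these genes held 4 sites in each experiment, where 59 and 64 sites had a symbol. The 2 sides thus differed in gene family, and the windows were not compared without olfactory receptor genes. The windows of genes with a downstream site had a median GC content of 41.0% against 54.2% for genes with an upstream site. These windows are near the gene start and not the sites themselves, most of which lay kilobases away.

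Upstream sites outnumbered downstream sites in both experiments. Experiment 1 had 114 upstream (69.5%, interval 61.9 to 76.5%) and 50 downstream. Experiment 2 had 122 upstream (70.1%, interval 62.7 to 76.8%) and 52 downstream. Of the distinct sites, 207 of 301 were upstream (68.8%, interval 63.2 to 74.0%). The distance was measured from the gene start on both sides, so a downstream site had to pass the whole gene within 20 kb, and all 50 and 52 downstream sites were assigned to genes of at most 12.3 kb. Genes with a downstream site were short, with a median length of 0.895 kb in experiment 1 and 0.905 kb in experiment 2, against 11.3 and 10.3 kb for genes with an upstream site. Measured from the nearer gene edge, the upstream share was 64.0% and 65.2%, with 14 and 13 downstream sites added (intervals 56.5 to 71.1% and 57.9 to 72.0%). Over all listed sites outside genes, at any distance and without the small RNA features, 58.6% and 58.9% were upstream. These shares lie within the intervals of the nearer-edge shares, towards their lower ends. The excess measured from the gene edge was thus not clearly apart from that of the whole list. That list includes the proximal sites, and the share among the remaining sites alone was not computed.

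The first kilobase before the start held the most sites per kilobase in experiment 1, which was not the case in experiment 2. In experiment 1, 14 of 114 upstream sites lay within 1 kb (12.3%, interval 6.88 to 19.7%), a stretch that is 5% of the 20 kb window. The other bins of experiment 1 held 6 upstream sites per kb from 1 to 5 kb, 4.20 from 5 to 10 kb and 5.50 from 10 to 20 kb. In experiment 2, 7 of 122 lay within 1 kb (5.74%, interval 2.34 to 11.5%), and the density fell from 8.25 per kb between 1 and 5 kb to 6.80 and then 4.80 further out. The intervals of the 2 experiments for the first kilobase overlap. Downstream, 1 site of experiment 1 and none of 52 in experiment 2 had its summit within 1 kb of the start (0%, interval up to 6.85%), and density was highest from 1 to 5 kb in both (4.25 and 5.25 per kb). Sites that crossed a gene start, 6 in experiment 1 and 3 in experiment 2, were not among these by the rule.

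**Figure D1:**
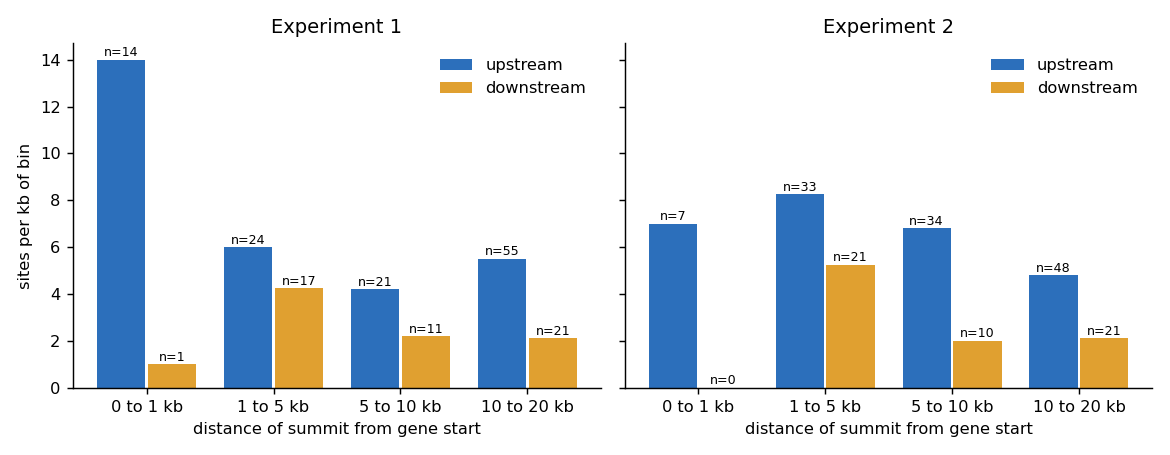
Sites per kilobase (vertical axis) in 4 bins of distance between site summit and gene start (horizontal axis), upstream in blue and downstream in orange, with the number of sites above each bar. In experiment 1 the first upstream kilobase reaches 14 per kb, and in experiment 2 the tallest bar is the upstream bin of 1 to 5 kb at 8.25 per kb.

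Sites within 1 kb of a start were assigned to genes of varied function. Experiment 1 had 15. The highest fold was at Ctnna3, which encodes the adherens junction protein alpha-T-catenin (603 bp upstream, 23.31-fold, 42 tags, FDR 3.03%). Others lay at the gene for p21-activated kinase 3, a target of Cdc42 and Rac (902 bp, 12.81-fold), at Fmc1, a factor of ATP synthase assembly (897 bp, 11.95-fold), and at the gene for myoneurin, a zinc finger protein (781 bp, 11.45-fold). Lower values stood at Trim29 (669 bp, 10.66-fold), the peroxisomal import gene for biogenesis factor 12 (469 bp, 7.60-fold) and the tubulin deglutamylase gene Agbl5 (311 bp, 6.81-fold). These named sites, with Polr3e, Wbp4 and Olfr406, were all found in experiment 1 alone.

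Experiment 2 had 7 sites within 1 kb, of which Olfr1184 (899 bp, 12.74-fold, 9 tags) and AY761185 (455 bp, 8.48-fold, 18 tags) were the only ones with a gene symbol. The 3 sites within 1 kb that both experiments found were at Ensembl genes without symbol or description. The first, at ENSMUSG00000082766, lay 359 and 363 bp before the start, at 20.42-fold in experiment 1 and 14.34-fold in experiment 2. The second, on chromosome 9 at 178 and 173 bp, reached 11.36-fold and 11.56-fold. The third, at ENSMUSG00000078303, was 32 and 18 bp before the start and had 209 tags at 13.06-fold and 97 tags at 7.46-fold, which made it one of the most heavily tagged sites of both lists. In both experiments the summits of these sites differed by no more than 14 bp.

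Fold enrichment was higher upstream than downstream in experiment 1 and nearly equal in experiment 2. The median was 9.33-fold for the 114 upstream sites of experiment 1 (quartiles 6.51 and 13.4, range 3.02 to 37.3) and 7.25-fold for the 50 downstream sites (quartiles 6.02 and 10.5, range 2.93 to 19.47). In experiment 2 it was 9.88-fold upstream (quartiles 8.44 and 12.3, range 5.3 to 66.92) and 9.63-fold downstream (quartiles 9.02 and 11.9, range 3.45 to 17.52). The quartiles of upstream and downstream sites overlapped in both experiments. Of the 20 proximal sites with the highest fold, 19 in experiment 1 and 17 in experiment 2 were upstream. Without the 5% of sites with the highest fold, the ratio of the medians fell from 1.29 to 1.10 in experiment 1 and from 1.03 to 1.00 in experiment 2.

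Fold did not fall off steadily with distance. In experiment 1 the upstream median was 11.4-fold within 1 kb, 6.70-fold from 1 to 5 kb, 8.18-fold from 5 to 10 kb and 9.89-fold from 10 to 20 kb. In experiment 2 the same bins gave 9.47, 9.86, 10.2 and 10.3-fold. The upstream medians of experiment 2 thus stayed within about 1 fold unit of each other, and those of experiment 1 were lowest between 1 and 5 kb. Shared sites of experiment 1 lay at distances from 32 bp to 19.8 kb.

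**Figure D2:**
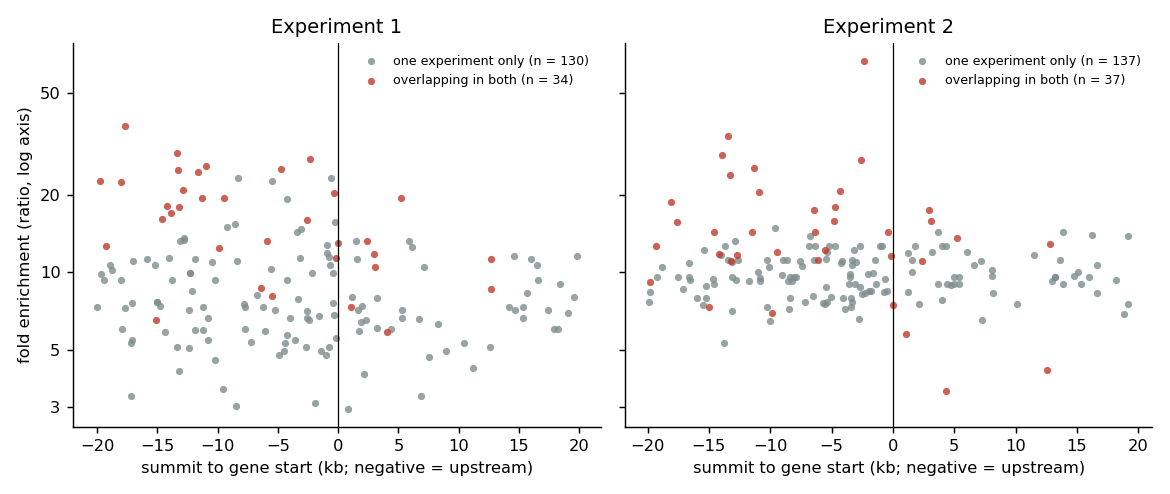
Fold enrichment (vertical log axis) of each proximal site against the distance of its summit from the gene start (horizontal axis, kb, upstream to the left). Red points are sites overlapped in the other experiment (34 in experiment 1 and 37 in experiment 2) and grey points are the rest; the highest points are red and mostly to the left of the start.

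Proximal sites were found in both experiments more often than sites in general. Of the 164 sites of experiment 1, 34 were overlapped by at least 1 bp by a site of experiment 2 (20.7%, interval 14.8 to 27.7%), beside 14.7% of all sites of that list. Of the 174 sites of experiment 2, 37 were overlapped (21.3%, interval 15.4 to 28.1%), beside 12.4% of all sites. Sites outside the proximal set were shared at 13% (interval 10.3 to 16%) and 10.3% (interval 8.20 to 12.8%). The intervals of proximal and other sites overlapped in experiment 1 and were apart in experiment 2. Chromosome 13 held 7 of the shared proximal sites of experiment 1 and 10 of those of experiment 2, several of which met the same broad site. Without that chromosome 27 proximal sites were shared in each list. The shares and intervals were not computed without it, so whether the separation in experiment 2 remains was not tested. Sites inside or across the edge of a gene were shared at 19.8% and 12.4%, sites at 20 to 100 kb at 15.7% and 11.1%, and sites beyond 100 kb at 6.60% and 6.81%. The same number of sites inside or across a gene edge, 21, was shared in each list, of 106 in experiment 1 and of 170 in experiment 2. Their intervals (12.7 to 28.7% and 7.81 to 18.3%) overlap those of the proximal sites in both experiments.

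**Figure D3:**
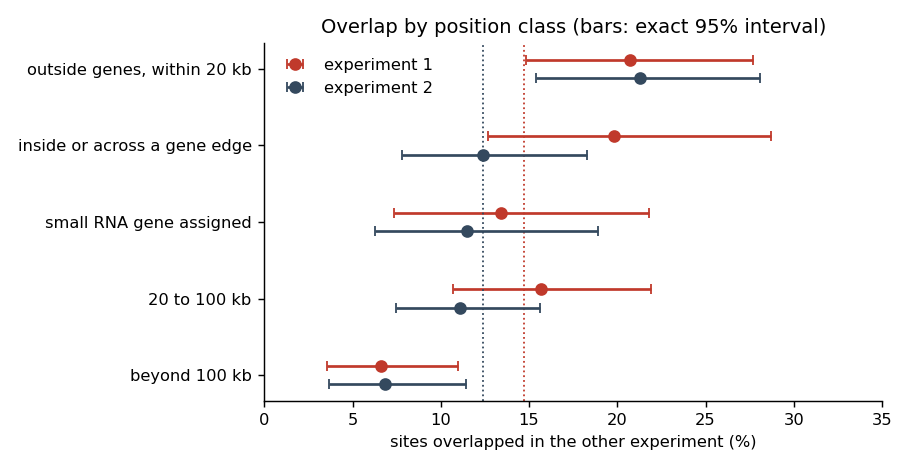
Percent of sites overlapped by a site of the other experiment (horizontal axis) for 5 position classes (vertical axis), with exact 95% intervals as bars and the share over all sites of each list as dotted lines (14.7% and 12.4%). The proximal class is at 20.7% and 21.3%, and sites beyond 100 kb are at 6.60% and 6.81%.

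Most of the strongest sites were shared. Of the 20 proximal sites with the highest fold, 16 in experiment 1 and 18 in experiment 2 were shared. Of ranks 21 to 50, 11 and 8 were shared, and of ranks 51 to 100, 5 and 4. Of the remaining sites, 2 of 64 in experiment 1 (3.12%) and 7 of 74 in experiment 2 (9.46%) were shared, so in experiment 2 the share did not fall further below rank 50. Shared sites had a median of 16.6-fold and 44.5 tags in experiment 1, against 7.33-fold and 22 tags at unshared ones. In experiment 2 the medians were 14.3-fold and 20 tags against 9.56-fold and 11 tags. An FDR of 5% or lower was reached by 18 of 164 proximal sites of experiment 1 (11.0%), beside 8.22% of all its sites, and 14 of these 18 were shared. No site of experiment 2 reached it, proximal or other (0 of 901). An FDR of 100%, the highest value, stood at 109 of 130 unshared and 4 of 34 shared proximal sites of experiment 1, and at all 137 unshared and 25 of 37 shared proximal sites of experiment 2.

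Upstream sites were shared at 22.8% (26 of 114, interval 15.5 to 31.6%) in experiment 1 and 23.8% (29 of 122, interval 16.5 to 32.3%) in experiment 2. Downstream sites were shared at 16% (8 of 50, interval 7.17 to 29.1%) and 15.4% (8 of 52, interval 6.88 to 28.1%). The upstream share was the higher in both experiments, with intervals that overlap. Shared sites are by definition the same places in both lists, so the 2 experiments are not independent on this point. The shared sites formed 37 pairs, since 1 broad site of experiment 1 met 4 sites of experiment 2. In all 37 pairs both sites were proximal and had the same assigned gene. Their summits lay a median of 14 bp apart, 26 pairs were within 50 bp, and in 33 pairs the site of experiment 2 lay wholly within that of experiment 1.

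Across 34 pairs, 1 for each shared site of experiment 1, the log2 fold values had a Pearson's r of 0.633 and a Spearman's rho of 0.554. This is a description across sites that passed the caller's threshold in both experiments. Fold was higher in experiment 1 in 20 pairs and in experiment 2 in 14, and 29 pairs lay within 2-fold of each other. The ratio of experiment 1 to experiment 2 ranged from 0.415 to 2.46.

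**Figure D4:**
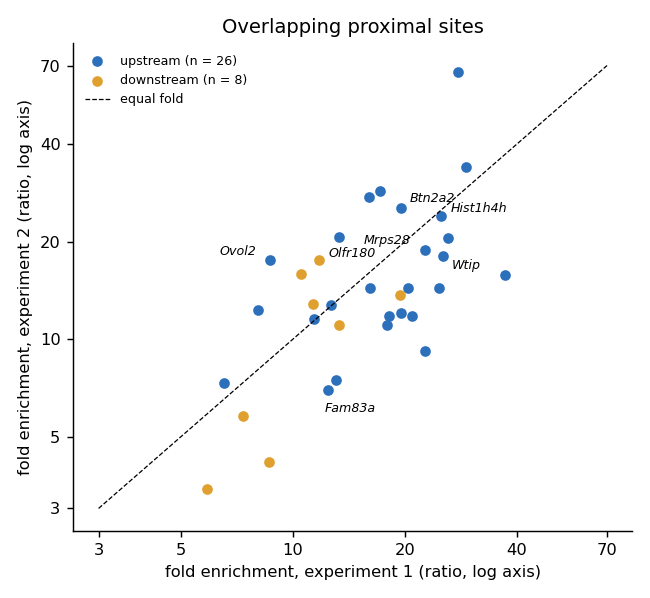
Fold enrichment of overlapping proximal sites in experiment 1 (horizontal log axis) and experiment 2 (vertical log axis), 26 upstream in blue and 8 downstream in orange, with the dashed line at equal fold. For the broad site with 4 partners the partner of highest fold is drawn. Most points lie within 2-fold of the line, and the downstream sites do not exceed 19.47-fold.

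The 10 shared sites with the best mean rank of fold all lay upstream of their genes, 2.33 to 18 kb from the start. The first place was held by 2 Ensembl genes without symbol or description. At ENSMUSG00000041365 the site lay 13.4 kb upstream (chr1:53538633-53539374) and was enriched 29.29-fold with 54 tags in experiment 1 and 33.98-fold with 22 tags in experiment 2. At ENSMUSG00000035253 it lay 2.33 kb upstream (chr13:21584365-21585142) and reached 27.79-fold with 100 tags in experiment 1 and 66.92-fold with 52 tags in experiment 2, the highest fold of any proximal site. Despite that fold, its FDR was 7.69% in experiment 1 and 100% in experiment 2.

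Among named genes, the gene for fibroblast growth factor receptor 2, a receptor tyrosine kinase of epithelial growth, had the highest fold of experiment 1. Its site, 17.7 kb upstream (chr7:137427481-137428206), was enriched 37.3-fold with 76 tags in experiment 1 and 15.78-fold with 18 tags in experiment 2. The gene for STEAP family member 3, a ferrireductase of iron uptake, had a site 11.0 kb upstream (chr1:122179903-122180685) at 26.13-fold and 20.57-fold. Wtip, which encodes a LIM domain protein that binds WT1, had one 4.72 kb upstream (chr7:34922591-34923342) at 25.31-fold and 18.07-fold. These sites ranked among the first 15 of proximal sites in both experiments.

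Other shared sites lay upstream of genes with varied roles in signalling, protein synthesis and transport. The gene for Eph receptor A10, of a family of contact-dependent receptors, had one 11.6 kb upstream (chr4:124546173-124547023) at 24.65-fold and 14.34-fold. Mrps28, of the small subunit of the mitochondrial ribosome, had one 17954 bp upstream (chr3:8941494-8942049) at 22.62-fold and 18.87-fold. The gene for Sec24C, a cargo adaptor of the COPII coat of vesicles, had one 2.59 kb upstream (chr14:21490526-21491121) at 15.99-fold and 27.5-fold, with summits at the same base. Rab11a, a GTPase of recycling endosomes, had one 19.3 kb upstream at 12.66-fold and 12.74-fold.

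Genes for transcription regulators were also among those with a shared site. Hes7, a repressor of the segmentation clock, had a site 9.48 kb upstream (chr11:68924140-68924902) at 19.56-fold in experiment 1 and 12.05-fold in experiment 2. Nr0b1, the orphan nuclear receptor DAX1, had one 14.2 kb upstream (chrX:83422561-83423412) at 18.16-fold and 11.83-fold. Ovol2, a zinc finger repressor that maintains epithelial identity, had one 6.39 kb upstream (chr2:144163949-144164396) at 8.66-fold and 17.52-fold, with summits 2 bp apart. The order of these 3 genes by fold differed between experiments, with Ovol2 lowest in experiment 1 and highest in experiment 2.

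A stretch of chromosome 13 between 21 and 24 Mb, which holds histone, butyrophilin and zinc finger genes, carried 10 proximal sites in experiment 1 and 7 in experiment 2, of which 6 in each were shared. They included Hist1h4h, a histone H4 gene (13.3 kb upstream, 25.1-fold and 24.09-fold), Btn2a2, a butyrophilin of the immunoglobulin superfamily (11.3 kb, 19.49-fold and 25.47-fold), and the gene for zinc finger protein 184 (13.9 kb, 17.13-fold and 28.61-fold). Abt1, which encodes an activator of basal transcription, followed at 13.2 kb with 17.93-fold and 11.04-fold. The median fold of the stretch was 14.3 in experiment 1 and 24.1 in experiment 2, against 8.03 and 9.82 over all proximal sites. The stretch was not among the planned comparisons, and its sites are part of all proximal sites. Most of its sites were shared, and shared proximal sites had medians of 16.6-fold in experiment 1 and 14.3-fold in experiment 2. Chromosome 13 as a whole held 10.4% and 9.20% of proximal sites, and 5.66% and 4.99% of all sites. Elsewhere on it, 1 site of 3082 bp in experiment 1 near 3110070M22Rik (13.32-fold, 207 tags) met 4 sites of experiment 2 at 20.71, 15.93, 14.34 and 11.15-fold.

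Chromosome X held 11 proximal sites in experiment 1 (6.71%) and 22 in experiment 2 (12.6%), against 5.66% and 6.99% of all sites of those lists. The site of Nr0b1 was the 1 shared site among them. Chromosomes 8, 10, 12, 17 and 19 had no shared proximal site in either experiment, so few shared sites were not particular to X.

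The 8 shared downstream sites were led by one 5.22 kb from the start of an Ensembl gene without description on chromosome 11 (19.47-fold and 13.69-fold). Olfr180 (2.94 kb, 11.78-fold and 17.52-fold) and Olfr1168 (3.04 kb, 10.52-fold and 15.93-fold), both olfactory receptor genes, were the only ones of the 8 with a symbol. The most heavily tagged downstream site that was shared, on chromosome 11 (chr11:108872722-108873579), had 293 and 133 tags but only 5.86-fold and 3.45-fold. At this site many tags stood beside a low fold. Likewise, a site of 3722 bp on chromosome 12 (chr12:116302006-116305727) had the most tags of all proximal sites of experiment 1, 319, at the lowest fold, 2.93, and was not found in experiment 2.

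Sites found in 1 experiment only included some of high fold in experiment 1. The highest were at Ctnna3 and, also at 23.31-fold, 8.29 kb upstream of the ribonuclease gene Rnase4 (46 tags, FDR 2.0%). Rps6ka3, a growth factor-dependent kinase, had a site 4.22 kb upstream (19.40-fold, 50 tags, FDR 3.57%), and Csrp2, a LIM domain protein of smooth muscle and stellate cells, had one at 8.55 kb (15.52-fold). Cxcl1, a neutrophil-attracting chemokine, had one 9.19 kb upstream (15.03-fold, 42 tags, FDR 18.89%). Clptm1l followed at 3.06 kb with 14.84-fold. Those of experiment 2 were lower and had few tags: Gm16223 at 9.57 kb (14.87-fold, 12 tags), Ppp3r1, the regulatory subunit of calcineurin, at 6.77 kb (13.9-fold, 9 tags) and Lrpprc, a stabiliser of mitochondrial mRNA, at 12.9 kb (13.22-fold, 12 tags). All sites found in experiment 2 alone were below 15-fold, while in experiment 1 unshared sites reached 23.31-fold.

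Of 135 distinct gene symbols at proximal sites, 46 fell into the 20 gene groups considered. Chemosensory receptors were the largest of the groups, with 24 of the 135 symbols at proximal sites (17.8%) and 8 of the 445 at all other sites (1.80%). They are 6.94% of the protein-coding genes of the reference. They were 21 olfactory receptor genes, the bitter taste receptor genes Tas2r120 and Tas2r129, and the vomeronasal receptor gene Vmn2r112. Their sites all had an FDR of 100% except that of Olfr180 in experiment 1 (77.08%). In experiment 2 these sites held 9 to 13 tags each. Of the olfactory receptor sites, 6 of 10 in experiment 1 (60.0%, interval 26.2 to 87.8%) and 10 of 14 in experiment 2 (71.4%, interval 41.9 to 91.6%) were downstream. Both intervals include equal numbers on the 2 sides. Without them the downstream share was 28.6% in experiment 1 and 26.2% in experiment 2, against 30.5% and 29.9% with them. These genes are short, with a median length of 0.951 and 0.945 kb, and of their sites 2 in each experiment were shared, those at Olfr180 and Olfr1168. The shares of 17.8% and 1.80% compare unlike positions. By the rule, the other sites lay inside or across genes, beyond 20 kb or at small RNA features. Whether the short length of chemosensory receptor genes accounts for the contrast was not tested.

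The other groups had few genes. Genes with a zinc finger symbol (Zfp, Zscan, Zbtb or Zkscan) numbered 5 (3.70% of symbols, beside 2.14% of protein-coding genes), all with an upstream site found in 1 experiment only: Zfp59 (9.58-fold), Zfp773 (9.51-fold), Zfp110 (8.43-fold), Zfp386 (7.96-fold) and Zfp677 (7.61-fold). The gene for zinc finger protein 184, Ovol2 and the gene for myoneurin also encode zinc fingers but were outside this group, which was set by symbol. Among ribosomal protein genes, Mrps28 was shared, and Rpl31 (13.32-fold) and Mrps14 (6.63-fold) were found in experiment 1 alone. The group also took in Rps6ka3 by the start of its symbol, although it encodes a kinase. Solute carriers, ion channels and neurotransmitter receptors had 2 genes each, such as the zinc transporter gene Slc39a8 (5.39 kb upstream, 12.05-fold) and the calcium channel gene Cacna1d (2.06 kb, 9.86-fold). Groups with no gene at a proximal site numbered 8, among them hepatocyte identity genes, the Krüppel-like and SP family, reported KLF6 targets, and cell cycle and p53 genes. These 4 groups are small, from 0.0959 to 0.119% of protein-coding genes each, so a count of 0 among 135 symbols is near the share over all genes. Only genes with a symbol in the lists could be placed in a group, and these were 76 of 164 and 79 of 174 sites.

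A gene could have more than 1 proximal site, as 10 genes did. Cct8, a subunit of the chaperonin that folds actin and tubulin, had 2 upstream sites in experiment 1, at 12.8 kb (13.44-fold) and 14.0 kb (11.41-fold). Trim27, a ubiquitin ligase, had 2 at 7.83 kb (7.55-fold) and 12.1 kb (8.44-fold), and the lipase gene Lipn had 2 at 4.43 kb (5.33-fold) and 12.4 kb (5.09-fold). The RIKEN cDNA gene 1700009P17 had a shared site at 19.8 kb (22.65-fold and 9.21-fold) and another at 18.9 kb in experiment 1 alone (10.66-fold). The CD209a antigen gene, a lectin of dendritic cells, was the 1 of 35 genes common to both experiments whose sites did not overlap, with 1 site upstream in experiment 1 (10.34-fold) and 1 downstream in experiment 2 (6.55-fold).

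Some genes at proximal sites had a tRNA gene among the next 5 annotated genes in either direction, counted by order, not distance. This held for 16 of 68 protein-coding genes in experiment 1 (23.5%, interval 14.1 to 35.4%) and 8 of 73 in experiment 2 (11.0%, interval 4.85 to 20.5%), beside 2.90% of all 21887 protein-coding genes of the reference. At all other sites it held for 14 of 187 (7.49%, interval 4.15 to 12.2%) and 5 of 270 (1.85%, interval 0.604 to 4.27%). The intervals of proximal and other sites were apart in both experiments. Of 2 single position classes set beside them, the proximal interval was apart only from that of sites inside or across a gene edge in experiment 1. For sites at 20 to 100 kb the share was 8.33% (interval 3.12 to 17.3%) and 1.06% (interval 0.0269 to 5.79%), and for sites inside or across a gene edge 4.48% (interval 0.933 to 12.5%) and 2.97% (interval 0.617 to 8.44%). Genes with a shared proximal site had such a neighbour in 6 of 13 cases (46.2%, interval 19.2 to 74.9%), namely Hist1h4h, Btn2a2, Abt1, Hes7, Rab11a and Fam83a. The 13 genes are the same in both lists, so this is 1 count and not 2. Of the genes with unshared proximal sites, 10 of 55 (18.2%) and 2 of 60 (3.33%) had one.

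The first 3 of these genes lie close to each other in the stretch of chromosome 13 described above, where Btn1a1 and Trim27 of the unshared sites of experiment 1 also lie, so these 5 genes are not independent cases. Without chromosome 13 the proximal share was 11 of 61 (18%, interval 9.36 to 30%) in experiment 1 and 5 of 69 (7.25%, interval 2.39 to 16.1%) in experiment 2. At all other sites it was then 7.43% (interval 4.01 to 12.4%) and 1.95% (interval 0.635 to 4.48%), and the intervals overlap in both experiments. Genes with a shared proximal site, the same in both lists, then had a tRNA neighbour in 3 of 10 cases. Hes7, Rab11a and Fam83a (9.88 kb upstream, 12.46-fold and 6.96-fold) lie on other chromosomes. Of the 7 genes with a symbol whose start had an experiment 1 site closer than 1 kb, Ctnna3, Polr3e, Fmc1, Wbp4 and Agbl5 had a tRNA neighbour. Neither Olfr1184 nor AY761185, the only such genes of experiment 2, had one. Sites beside genes with a tRNA neighbour had a median of 12.5-fold in experiment 1 (17 sites) and 11.6-fold in experiment 2 (8 sites), against 8.42 and 9.84-fold at the other symbol-matched proximal sites. Of these 17 and 8 sites, 6 and 3 lay on chromosome 13, and the medians were not computed without them. Whether the tRNA genes themselves carried the enrichment was not tested, since the distance from a site to a tRNA gene is not in the lists.

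**Figure D5:**
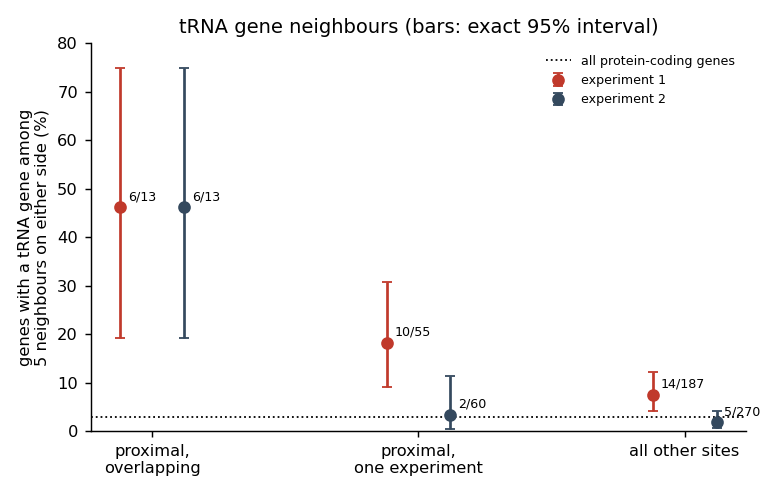
Percent of protein-coding genes that have a tRNA gene within 5 genes in either direction (vertical axis), for genes at overlapping proximal sites, at proximal sites of 1 experiment and at all other sites (horizontal axis), with exact 95% intervals and the number of genes beside each point. The dotted line is the share over all protein-coding genes, 2.90%. The overlapping sites are at 46.2%, drawn for each experiment although the genes are the same.

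The limit of 20 kb fell in a continuous run of distances. Just inside it were Tpbpa (19975 bp, 7.33-fold) and 1700009P17 in experiment 1, and Aldh6a1 (19.9 kb, 7.69-fold) and 1700009P17 in experiment 2. Just outside were Olfr872 (20.4 kb, 5.83-fold) and an undescribed gene (20.5 kb, 9.7-fold) in experiment 1, and the genes for protein arginine N-methyltransferase 6 (20.1 kb, 10.71-fold) and glycophorin-C (20.2 kb, 9.37-fold) in experiment 2.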

How the data were processed

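Chromatin immunoprecipitation sequencing compared KLF6-V5 precipitates with input DNA, in 1 sample each. The authors deposited 1 annotated site list per experiment, with experiment 1 pooling 2 runs. Per the file headers, the lists give tag counts per site (not normalised), a score that is 10 times the −log10 of the p-value, fold enrichment (a ratio), the FDR in percent and distances in bp. The headers do not say whether tags come from the precipitate or the input. The submitters' processing notes name MACS 1.3.6 and mm9, without a role. The aligner and its parameters were not given in the sources used here.

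Sites were selected by position, compared between lists by an overlap of at least 1 bp, and summarised with Python 3.11.15, pandas 2.3.3, numpy 2.4.6 and scipy 1.17.1; the overlap code was tested on simulated sites. The listed distance equals summit minus gene start at each site outside genes. Shares have exact Clopper-Pearson 95% intervals, and no p-value was computed, since the lists hold no values per library. Symbols (72 of 73 and 75 of 76 matched) were looked up in RefSeq genes of GRCm38.p6 for gene type and order only. The 250 bases before each RefSeq start were searched for motifs. Named genes were the 20 shared sites with the best mean rank of fold, the 8 strongest unshared sites per list, sites within 1 kb, those at the 20 kb limit, up to 6 per gene group and genes with several sites; a few others were chosen after their values were seen. Members and gene lists were chosen with earlier results of these data known. Alternatives changed the distance limit and measure, overlap rule, score, features and experiment.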

Additional observations from a re-analysis of the deposited data

How the results depend on the processing

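No paired analysis was possible because the result comes from no test and the lists hold no values per library. Alternatives numbered 59, of which 46 were planned. The 13 others were added after seeing the data and left out chromosome X, chromosome 13 or the olfactory genes. Of the 59, 38 were classed as keeping the reported value, 16 as moving it and 5 as reversing it. A value classed as kept could still change, as when the 34 shared sites of experiment 1 became 27 without chromosome 13. With a limit of 10 kb, the proximal sites numbered 88 and 105, the shared ones 17 and 20, and the zinc finger genes 2. In the higher-scoring 50% of each list the sites numbered 99 and 96. Under a mutual overlap of 50% or more, 13 sites of each experiment were shared. The ratio of upstream to downstream median fold in experiment 1 moved from 1.29 to 1.09 with tags per kb in place of fold and to 1.10 without the 5% of highest fold. In experiment 2 that ratio was 1.03, and it reversed or became equal at 0.98 with the 10 kb limit, 0.97 in the higher-scoring 50%, 1.00 without the 5% of highest fold and 0.99 without chromosome 13. The ratio of median fold beyond 10 kb to that within 5 kb in experiment 1 reversed from 1.22 to 0.97 in the higher-scoring 50%. Each experiment alone gave 11 and 15 chemosensory genes in place of 24, and 1 and 4 zinc finger genes in place of 5. With sites within 1 kb of the start only, the GC box share moved from 44.0 to 62.5% and the CACCC box share from 48.8 to 25%. The fewer sites, or the choice of sites, follow from how each alternative is built; other causes were not tested. Library depths are unknown, so a site missing from 1 list cannot be told apart from one that was too shallowly sequenced.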
